A study of Homo sapiens with 10 samples.

Results

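The 10 genes described here encode surface molecules through which a B cell engages T cells: CD274, PDCD1LG2, CD80, CD86, ICOSLG, CD58, CD70, CD40, TNFRSF14 and FAS. They were chosen by name, as ligands and receptors of T cell costimulation, checkpoint inhibition and killing, to stand beside the MHC class II genes, and all 10 were found among the 21174 gene identifiers of the count table. The libraries came from U2932, a human cell line established from a diffuse large B cell lymphoma, in which mature B cells have become malignant. There were 5 libraries of clones labelled CREBBP+/- (columns Het_6 to Het_10) and 5 of clones labelled CREBBP+/+ (WT_1 to WT_5). The CREBBP protein acetylates histones and other proteins and serves as a coactivator of transcription. All clones shared the same line and culture medium, and no agent is named in the labels. How the CREBBP allele was altered and how the clones were derived is not given in the sources used here, nor whether libraries came from separate cultures, so p-values measure only the spread between these libraries.

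Totals ran, in units of 1e+06 counts (M), between 10.6 and 23.0 M in CREBBP+/- libraries and between 16.5 and 21.8 M in CREBBP+/+ libraries, with Het_9 the shallowest. Levels are given as CPM, counts scaled to a library of 1e+06 with TMM factors. The libraries fell into 3 clusters that cross the genotypes, computed without CREBBP, the 10 genes and the class II genes: cluster A (Het_8, WT_1, WT_2), cluster B (Het_6, Het_7, WT_3, WT_4, WT_5) and cluster C (Het_9, Het_10), which holds no CREBBP+/+ library. These clusters come from the data and not from the labels, so values by cluster are given without a test. The 7 B cell markers fixed for the line were all tested, with a summed level between 2119 and 3640 CPM in the CREBBP+/- group and between 2067 and 3691 CPM in the CREBBP+/+ group. The 8 T and NK cell markers summed to between 0.299 and 4.50 CPM in the CREBBP+/- group and between 0.247 and 0.879 CPM in the CREBBP+/+ group, with CD3D and NKG7 at 0 counts throughout. The upper values were those of NCAM1, at 3.95 CPM in Het_9 and 2.61 CPM in Het_10. The 6 myeloid markers summed to at most 1.47 CPM in any library, with FCGR1A and FCGR3A at 0 counts. Of the 5 stromal and epithelial markers, EPCAM was tested, and their sum lay between 13.9 and 26.9 CPM in the CREBBP+/- group and between 1.91 and 25.1 CPM in the CREBBP+/+ group, lowest in WT_1 and WT_2. Mitochondrial transcripts made up 8.89 to 10.2% of counts in the CREBBP+/- group and 7.85 to 8.51% in the CREBBP+/+ group, without overlap, and their part in the values below was not tested.

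T cells need a signal through CD28, which binds CD80 and CD86, beside the peptide that an MHC molecule presents; CTLA4 competes for the same ligands. PD-L1 (from CD274) and PD-L2 (from PDCD1LG2) bind PD-1 and restrain T cells. ICOSLG binds ICOS on follicular helper T cells, CD58 binds CD2, and CD70 binds CD27. CD40 on the B cell receives CD40 ligand from helper T cells, HVEM (from TNFRSF14) binds BTLA, CD160 and LIGHT, and FAS is the death receptor for FAS ligand. In diffuse large B cell and follicular lymphoma, CD58, TNFRSF14, CD70 and FAS are recurrently mutated or deleted, and CREBBP mutation is linked to lower MHC class II.

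RefSeq promoters (GRCh38.p14) were listed for 7 of the 10 genes; CD70, CD40 and PDCD1LG2 were not matched. The 250 bases before the RefSeq start of transcription are printed for 4 of them. CD274 and TNFRSF14 had the estimates furthest from 0 in each direction. CD86 and CD58 hold TGACG, the core of the site for CREB, the factor that CREBBP was named for. Some gene starts in GENCODE differ from these. That of TNFRSF14 (2555639) lies before its printed stretch, and those of CD274 (5450503) and CD58 (116571039) lie within theirs. Capitals mark matches on either strand to TTCNNNGAA (a STAT site, GAS) and the IRF motif in CD274, to TGACG in CD86 and CD58, and to the kappaB motif in TNFRSF14.
CD274 (chr9:5450292-5450541, + strand): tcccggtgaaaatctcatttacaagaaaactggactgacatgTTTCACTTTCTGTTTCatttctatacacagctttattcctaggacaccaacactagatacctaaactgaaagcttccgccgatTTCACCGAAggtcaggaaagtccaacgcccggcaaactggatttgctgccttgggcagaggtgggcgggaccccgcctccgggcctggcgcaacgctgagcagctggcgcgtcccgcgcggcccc
TNFRSF14 (chr1:2556121-2556370, + strand): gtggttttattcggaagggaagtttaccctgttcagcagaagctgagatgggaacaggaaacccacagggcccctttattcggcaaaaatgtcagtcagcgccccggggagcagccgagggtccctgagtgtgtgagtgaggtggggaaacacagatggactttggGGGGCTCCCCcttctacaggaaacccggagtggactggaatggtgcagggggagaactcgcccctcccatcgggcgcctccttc
CD86 (chr3:122055112-122055361, + strand): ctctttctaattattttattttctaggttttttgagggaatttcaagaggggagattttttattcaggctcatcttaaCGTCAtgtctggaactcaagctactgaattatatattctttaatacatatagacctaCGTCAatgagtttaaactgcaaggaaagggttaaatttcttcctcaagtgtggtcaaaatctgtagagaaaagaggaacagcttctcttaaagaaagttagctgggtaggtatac
CD58 (chr1:116571027-116571276, - strand): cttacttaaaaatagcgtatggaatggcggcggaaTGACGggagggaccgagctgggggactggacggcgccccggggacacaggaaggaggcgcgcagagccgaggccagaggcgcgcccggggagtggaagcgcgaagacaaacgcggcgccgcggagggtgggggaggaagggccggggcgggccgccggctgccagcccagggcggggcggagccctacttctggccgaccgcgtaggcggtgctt
CD274 held 1 GAS match and 2 IRF matches that overlap each other, motifs found in 6.57% and 3.02% of all 35116 promoters of this length. TGACG occurred 2 times in the first of the 2 listed CD86 promoters and 1 time in that of CD58, and was found in 21.2% of all promoters. The kappaB motif was found in TNFRSF14, in the second CD86 promoter and in the second of 3 FAS promoters, and in 5.21% of all promoters. No full CREB site (TGACGTCA, 1.65% of all promoters, which contains TGACG) was found in those of the 7 genes. A match is a run of letters and not a measured site; no binding or acetylation was measured here.

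Per kilobase of the canonical transcript, CD70 and CD40 stood highest. Mean levels over the 10 libraries were 47.3 ± 21.6 CPM per kb for CD70 and 36.2 ± 6.50 CPM per kb for CD40 (SD, n = 10), and their ranges overlapped. CD86 followed with 12.1 ± 3.09 CPM per kb, then CD58 with 7.25, CD80 with 5.65, TNFRSF14 with 5.32 and FAS with 4.43 CPM per kb. Each of these 5 overlapped its neighbour in the order, whereas every library had more CD40 than any had CD86 on this scale. CD274 had 0.314 ± 0.129 CPM per kb, below the lowest FAS value of 2.19. ICOSLG and PDCD1LG2 were lowest, at 0.0467 and 0.00192 CPM per kb. Lengths are those of GENCODE transcripts, and which exons the authors counted is not stated in the sources used here.

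CREBBP itself was lower in the clones labelled CREBBP+/-. Its level was 71.4, 77.4, 56.8, 61.5 and 80.7 CPM in Het_6 to Het_10, against 118, 103, 103, 115 and 136 CPM in WT_1 to WT_5, with no overlap (log2 fold change -0.73, SE 0.12, n = 5 each). It did not pass the edgeR threshold over all 11961 genes tested (adjusted p = 0.395) and passed that of DESeq2 (adjusted p = 0.000104). CREBBP lies on chromosome 16 at 3725054 to 3880713. In bulk libraries, fewer cells with a transcript and less of it per cell cannot be told apart.

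None of the ligand genes passed edgeR's quasi-likelihood test between the genotypes. Of the 10 genes, 8 had enough counts to be tested and 0 of the 8 passed an adjusted p under 0.05, in a comparison that called 0% of 11961 genes. At an unadjusted p under 0.05 there were 0 of the 8, against 4.98% (596) of all genes tested, 2.38% higher and 2.6% lower in CREBBP+/- libraries. DESeq2, which called 34 genes or 0.268% of 12709, and limma-voom, which called 0 or 0%, called none of them either. The groups overlapped in all 10 genes, whereas 1.02% of genes tested did not overlap. The 8 log2 fold changes had a median of -0.06, against -0.01 over all genes tested, with 5 below and 3 above 0; their 95% confidence intervals all contained 0.

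**Figure D1:**
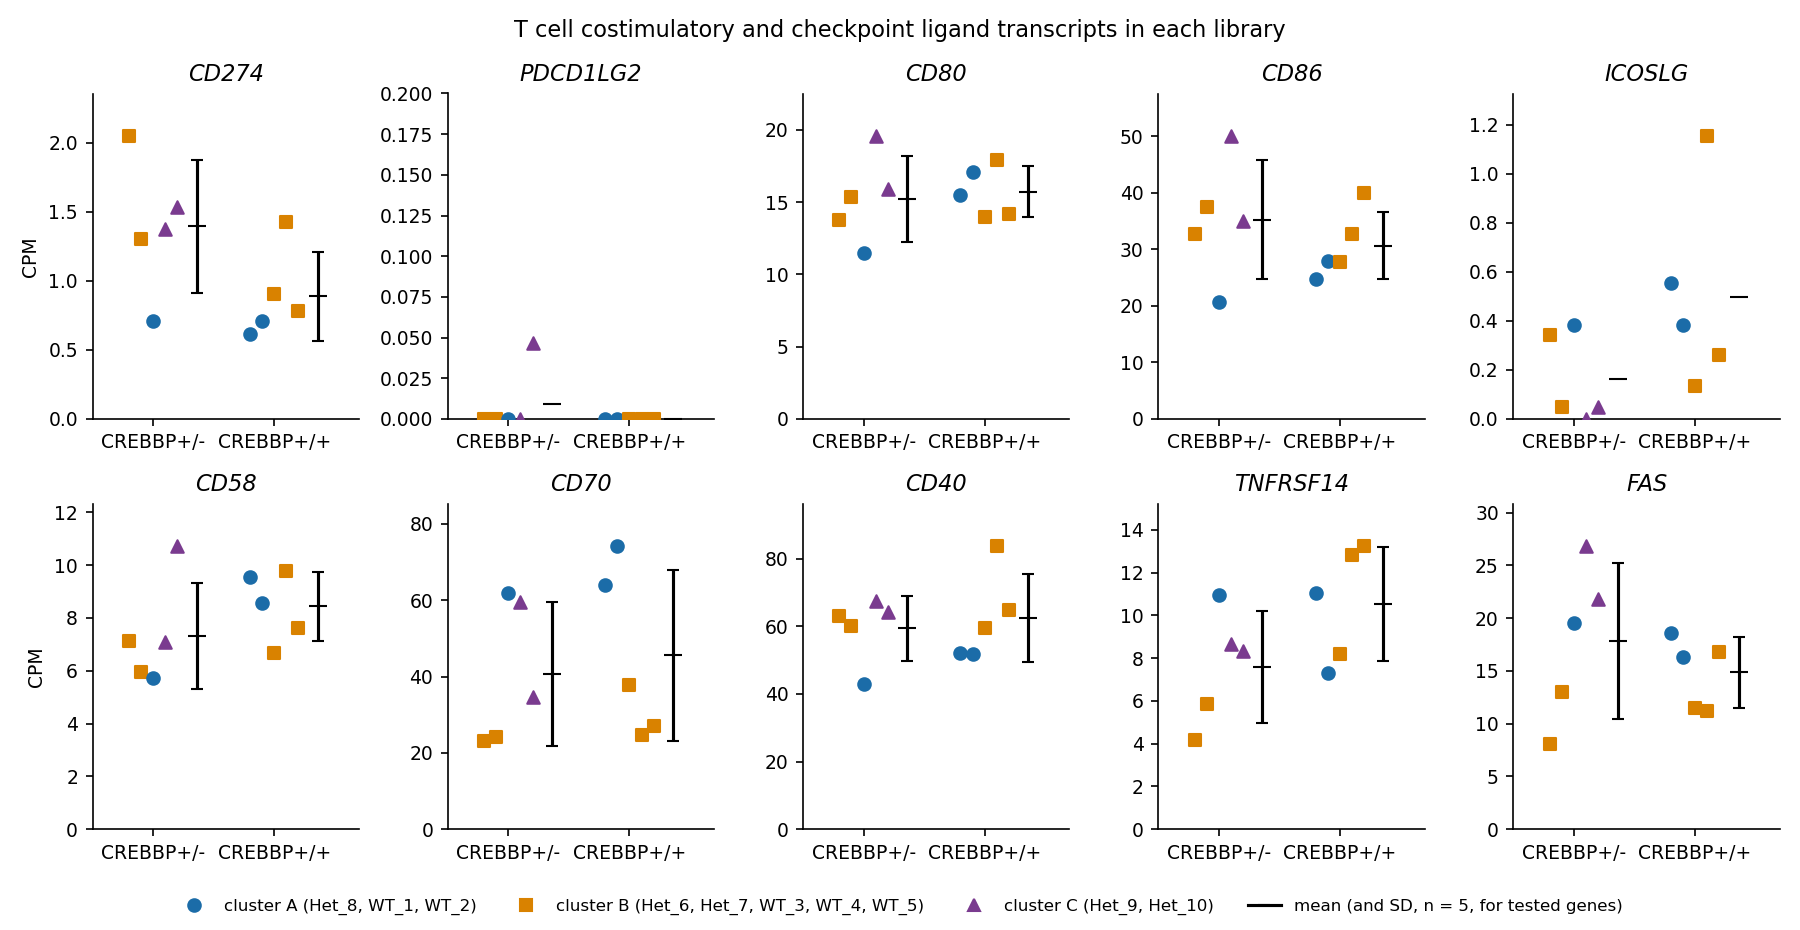
Level of each of the 10 genes in CPM (vertical axes from 0, each on its own scale) in 5 CREBBP+/- and 5 CREBBP+/+ libraries; symbols give the library cluster, and bars the mean with the SD for the 8 tested genes. The genotypes overlap in every panel, while CD70 is highest and CD274 and CD40 are lowest in cluster A, with Het_9 close to cluster A for CD70. The CD274 margin is small, with 0.709 CPM in WT_2 against 0.781 CPM in WT_5.

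The PD-1 ligands were scarce in this line. CD274 (ENSG00000120217, chromosome 9, 5450503 to 5470566, GRCh38) had 2.05, 1.30, 0.708, 1.38 and 1.54 CPM in Het_6 to Het_10, against 0.616, 0.709, 0.902, 1.43 and 0.781 CPM in WT_1 to WT_5. Het_6 was the highest library, and 4 of 5 CREBBP+/- libraries lay above the CREBBP+/+ median, but Het_8 lay with WT_1 and WT_2. These levels rest on 10 to 48 reads per library. CREBBP+/- over CREBBP+/+ gave a log2 change of 0.65 (SE 0.34; 95% interval from -0.11 to 1.41; edgeR unadjusted p = 0.0852 and adjusted p = 0.986). It was 0.82 without Het_8 (unadjusted p = 0.0281, adjusted p = 0.504), 0.47 without Het_6 (unadjusted p = 0.221) and 0.52 with the library cluster as a covariate (unadjusted p = 0.117). PDCD1LG2 (ENSG00000197646, chromosome 9, 5510531 to 5571282) had 1 read in Het_10 and 0 reads in the other 9 libraries, where a count of 0 allows up to 0.128 to 0.276 CPM, counting error only.

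The list of PD-L1 regulators held interferon and JAK-STAT genes (with the inhibitor SOCS1), NF-kappaB subunits, MYC, and genes of proteins that stabilise or degrade PD-L1. All 16 were tested and 0 passed, with a median log2 fold change of -0.06, 9 below and 7 above 0. STAT2, an interferon-activated transcription factor, averaged 45.6 ± 4.78 CPM in the CREBBP+/- group and 55.6 ± 2.14 CPM in the CREBBP+/+ group (SD, n = 5 each; log2 fold change -0.28, SE 0.09, edgeR unadjusted p = 0.00783 and adjusted p = 0.842). The groups overlapped by a narrow margin, since Het_6 at 53.3 CPM lay above WT_1 at 53.2 CPM. CMTM4, a membrane protein that shields PD-L1 from degradation together with CMTM6, had 4.57, 4.05, 1.09, 7.90 and 10.5 CPM in Het_6 to Het_10, against 0.678, 0.600, 3.16, 1.43 and 0.938 CPM in WT_1 to WT_5 (log2 fold change 2.03, SE 0.62, adjusted p = 0.845 in edgeR). Het_8 was the CREBBP+/- library within the CREBBP+/+ range. IRF9, a partner of STAT2, had a log2 fold change of 0.33 (SE 0.19) and SPOP, an adaptor of a ubiquitin ligase, one of -0.14 (SE 0.09). JAK2, which lies within 1 Mb of CD274, had a mean of 21.1 CPM in the CREBBP+/- and of 19.9 CPM in the CREBBP+/+ group. Of the 13 other tested genes in that window, 12 had an estimate above 0 and PLGRKT one of -0.028 (median 0.12). Of all genes tested, 52.4% were below 0.

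The CD28 ligands were both well expressed. CD80 (ENSG00000121594, chromosome 3, 119524293 to 119559614) had 13.8, 15.3, 11.4, 19.6 and 15.9 CPM in Het_6 to Het_10, against 15.5, 17.1, 14.0, 17.9 and 14.2 CPM in WT_1 to WT_5. CREBBP+/- libraries held both the highest (Het_9) and the lowest (Het_8) value, and the means were 15.2 ± 2.99 CPM in the CREBBP+/- group and 15.7 ± 1.74 CPM in the CREBBP+/+ group (SD, n = 5 each). For CREBBP+/- over CREBBP+/+ the log2 change was -0.05 (SE 0.15), with bounds of -0.38 and 0.28 at 95% confidence. In GENCODE, 24.8% of the exon bases of CD80 also lie in TIMMDC1 on the opposite strand, so its count is uncertain where strand was not used.

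CD86 (ENSG00000114013, chromosome 3, 122055362 to 122121139) spread more widely than CD80. It had 32.7, 37.6, 20.7, 50.1 and 35.0 CPM in Het_6 to Het_10, against 24.8, 27.9, 27.8, 32.7 and 40.0 CPM in WT_1 to WT_5. Het_8 was again lowest and Het_9 highest, and in cluster A the 3 libraries ranged from 20.7 to 27.9 CPM. Its log2 change between genotypes was 0.20 (SE 0.21; 95% interval from -0.27 to 0.67), and it was -0.071 with the library cluster as a covariate and -0.011 without Het_9 and Het_10. ICOSLG (ENSG00000160223, chromosome 21, 44215382 to 44241446) had 8, 1, 7, 0 and 1 reads in Het_6 to Het_10, against 9, 7, 3, 21 and 5 reads in WT_1 to WT_5, too few to be tested. All 5 CREBBP+/- libraries lay below the CREBBP+/+ median of 0.382 CPM, within overlapping ranges; edgeR with no filter gave a log2 fold change of -1.50 (unadjusted p = 0.0927, adjusted p = 0.830). A copy of ICOSLG at 5022531 to 5036771 of the same chromosome (ENSG00000277117), which GENCODE lists as an artifact of the assembly, took 0 to 10 further reads per library, so the ICOSLG count is uncertain.

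CD58 (ENSG00000116815, chromosome 1, 116514534 to 116571039), the adhesion ligand of CD2, averaged 7.31 ± 2.01 CPM in the CREBBP+/- group and 8.44 ± 1.31 CPM in the CREBBP+/+ group (SD, n = 5 each). Its levels were 7.13, 5.93, 5.72, 7.07 and 10.7 CPM in Het_6 to Het_10, against 9.55, 8.57, 6.68, 9.78 and 7.61 CPM in WT_1 to WT_5. In all, 4 CREBBP+/- libraries lay below the CREBBP+/+ median of 8.57 CPM, and Het_10 lay above all CREBBP+/+ libraries. This gave a log2 change of -0.20 (SE 0.20; 95% interval from -0.64 to 0.24). It was -0.38 without Het_10, -0.43 without Het_9 and Het_10 and -0.42 with the cluster as a covariate, with unadjusted edgeR p-values of 0.0489, 0.0488 and 0.0481 and adjusted p-values of 1.00, 1.00 and 0.389. The 9 other tested genes within 1 Mb all had estimates above 0 (median 0.18), where 52.4% of all genes tested were below 0.

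CD70 (ENSG00000125726, chromosome 19, 6583183 to 6604103) lay apart between clusters A and B, as did 45.8% of all genes tested, and overlapped between genotypes. It had 23.1, 24.0, 61.9, 59.4 and 34.7 CPM in Het_6 to Het_10, against 64.0, 74.2, 37.8, 24.7 and 26.9 CPM in WT_1 to WT_5. The 3 libraries of cluster A (61.9 to 74.2 CPM) lay above the 5 of cluster B (23.1 to 37.8 CPM), a 2.47-fold difference of the mean log2 levels, with Het_9 between them and Het_10 within the range of cluster B. CREBBP+/- over CREBBP+/+ gave a log2 change of -0.17 (SE 0.39; 95% interval from -1.03 to 0.70), and leaving out 1 library gave -0.37 (Het_8) to 0.080 (WT_2). TNFSF9, the 4-1BB ligand gene next to CD70 on chromosome 19, was likewise highest in cluster A, with 34.9 CPM in Het_8 and 33.2 and 34.0 CPM in WT_1 and WT_2. It had 9.30, 8.88, 16.1 and 13.3 CPM in Het_6, Het_7, Het_9 and Het_10, and 15.1, 8.08 and 11.7 CPM in WT_3, WT_4 and WT_5. Its log2 fold change was -0.31 (SE 0.49).

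CD40 (ENSG00000101017, chromosome 20, 46118271 to 46129863) spanned 1.95-fold between its highest and lowest library. It had 62.9, 59.9, 42.9, 67.3 and 64.1 CPM in Het_6 to Het_10, against 52.2, 51.7, 59.6, 83.6 and 64.9 CPM in WT_1 to WT_5. Cluster A was lowest in each genotype (Het_8, and WT_1 with WT_2), and WT_4 was highest. Between genotypes the estimate was -0.07 on the log2 scale (SE 0.16; 95% interval from -0.42 to 0.28), 0.026 without Het_8 and 0.058 without WT_4. It was -0.21 with the cluster as a covariate (edgeR unadjusted p = 0.0725, adjusted p = 0.444) and -0.17 without Het_9 and Het_10. Of 15 genes of CD40 signalling and its targets, 14 were tested and 0 passed, with 9 estimates above and 5 below 0 (median 0.13). MAP3K14, the NIK kinase of the non-canonical NF-kappaB pathway, averaged 32.8 ± 3.06 CPM in the CREBBP+/- group and 38.1 ± 4.71 CPM in the CREBBP+/+ group (SD, n = 5 each). BIRC3, an NF-kappaB target that limits NIK, had 388, 399, 140, 285 and 244 CPM in Het_6 to Het_10, against 146, 140, 335, 209 and 210 CPM in WT_1 to WT_5. All 3 cluster A libraries stood at the low end for BIRC3. The log2 fold changes were -0.21 (SE 0.11) for MAP3K14, 0.49 (SE 0.31) for BIRC3, 0.15 (SE 0.09) for its paralog BIRC2 and 0.64 (SE 0.54) for the chemokine CCL17.

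TNFRSF14 (ENSG00000157873, chromosome 1, 2555639 to 2565382) had the lowest estimate of the 8 tested genes. It had 4.18, 5.84, 10.95, 8.64 and 8.34 CPM in Het_6 to Het_10, against 11.0, 7.31, 8.21, 12.8 and 13.2 CPM in WT_1 to WT_5. Every CREBBP+/- library lay below the CREBBP+/+ median of 11.0 CPM, and Het_6 and Het_7 lay below all CREBBP+/+ libraries. Its log2 change was -0.47 (SE 0.27; 95% interval from -1.07 to 0.13; edgeR unadjusted p = 0.110 and adjusted p = 0.988), and it was -0.31 without Het_6 and -0.64 without Het_8 (unadjusted p = 0.0375, adjusted p = 0.522). In GENCODE, 13.3% of its exon bases also lie in TNFRSF14-AS1 on the opposite strand.

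The genes around TNFRSF14 had estimates on the same side. All 18 other tested genes within 1 Mb had a log2 fold change below 0 (median -0.20, range -0.54 to -0.076), where 52.4% of all genes tested were below 0; 0 of the 18 had an unadjusted edgeR p under 0.05. Among the flanking genes, PANK4 had -0.17 (SE 0.11), PEX10 -0.29 (SE 0.18) and PRXL2B -0.28 (SE 0.32). In cluster B the mean log2 CPM of TNFRSF14 differed by -1.16 between Het_6 and Het_7 and the 3 CREBBP+/+ libraries. All 18 neighbours were below 0 there, against 50.4% of all genes tested (median -0.45, against -0.00221 over all genes tested). In cluster A, Het_8 differed from WT_1 and WT_2 by 0.28 for TNFRSF14. There 5 of 18 neighbours were below 0 (median 0.11), against 49.4% of all genes tested. Over the windows around the other 9 genes the same cluster B median ran from -0.16 (CD70) to 0.22 (PDCD1LG2). Over all libraries the ICOSLG window had a like median of -0.21, with 13 of 15 genes below 0 and 3 at an unadjusted edgeR p under 0.05, so the shift over all libraries was not particular to TNFRSF14. Gene copy number was not measured here, and its part in these values was not tested.

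**Figure D2:**
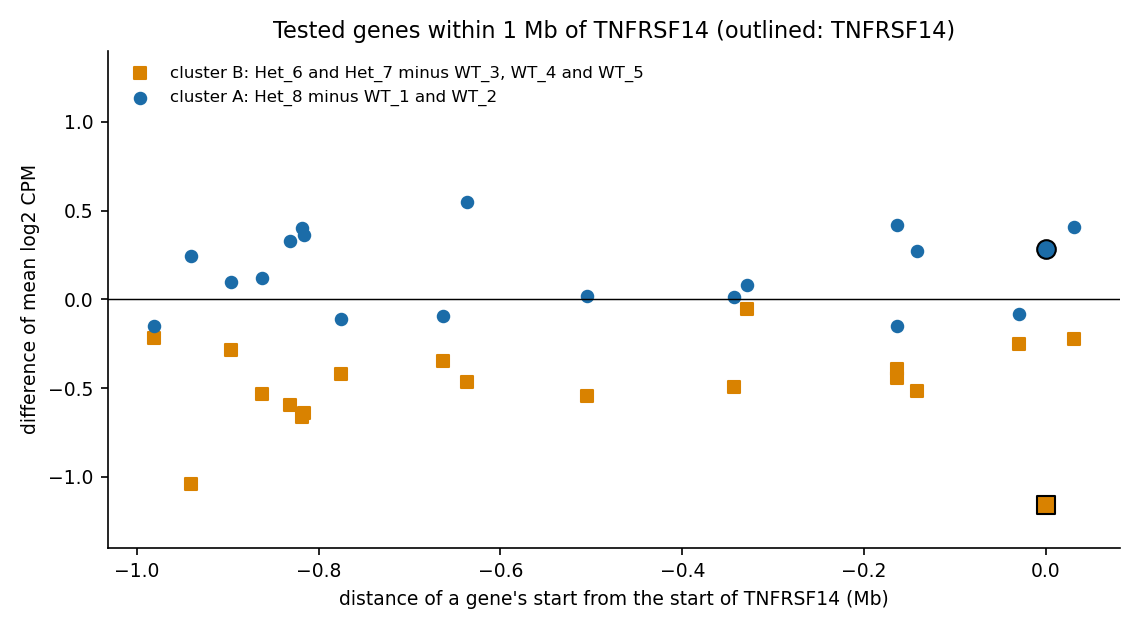
Difference of mean log2 CPM (vertical axis), CREBBP+/- minus CREBBP+/+ libraries of the same cluster, for tested genes within 1 Mb of TNFRSF14, by distance in Mb from its start (horizontal axis; negative values lie towards lower coordinates). Squares are cluster B and are all below 0, with TNFRSF14 itself at -1.16; circles are cluster A and lie on both sides of 0.

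FAS (ENSG00000026103, chromosome 10, 88953813 to 89029605) was highest in cluster C. It had 8.11, 13.0, 19.6, 26.8 and 21.8 CPM in Het_6 to Het_10, against 18.6, 16.3, 11.5, 11.2 and 16.8 CPM in WT_1 to WT_5. The 5 CREBBP+/- libraries held both the lowest value, Het_6, and the 3 highest, Het_8 to Het_10. CREBBP+/- over CREBBP+/+ gave a log2 change of 0.26 (SE 0.30; 95% interval from -0.39 to 0.91), and it was 0.069 without Het_9, -0.13 without Het_9 and Het_10 and -0.14 with the cluster as a covariate. In GENCODE, 6.48% of its exon bases also lie in an antisense RNA (ENSG00000286116) and 1.32% in ACTA2 on the opposite strand. All 14 genes of the death pathway were tested and 0 passed, with 8 estimates above and 6 below 0 (median 0.09, and -0.072 with the cluster as a covariate). CFLAR, the inhibitor of caspase 8 at the FAS receptor, averaged 113 ± 3.71 CPM in the CREBBP+/- group and 100.5 ± 8.27 CPM in the CREBBP+/+ group (SD, n = 5 each; log2 fold change 0.17, SE 0.08, edgeR unadjusted p = 0.0499 and adjusted p = 0.977). FADD, the adaptor of the same receptor, averaged 18.7 ± 1.62 CPM in the CREBBP+/- group and 21.2 ± 1.97 CPM in the CREBBP+/+ group (log2 fold change -0.19, SE 0.10). FAIM, an inhibitor of FAS-induced death, had 0.39 (SE 0.23) and DAXX -0.12 (SE 0.10).

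The MHC class II genes were lower in CREBBP+/- libraries in most cases. Of the 17 listed, 14 had estimates below 0 and the groups did not overlap in 12, each time with CREBBP+/- libraries lower; 0.594% of all genes tested were lower without overlap. Of the 8 ligand genes tested, 0 were so. HLA-DRA, whose product pairs with the HLA-DR beta chains, had 400, 422, 232, 311 and 298 CPM in Het_6 to Het_10, against 846, 851, 524, 704 and 626 CPM in WT_1 to WT_5 (log2 fold change -1.09, SE 0.19, edgeR adjusted p = 0.395). CIITA, the transactivator of class II genes, had 105, 110, 85.8, 71.1 and 84.7 CPM in Het_6 to Het_10, against 247, 191, 136, 157 and 167 CPM in WT_1 to WT_5 (-0.98, SE 0.17, edgeR adjusted p = 0.395). HLA-DPB1 had -1.17 (SE 0.17) and HLA-DRB1, whose reads can be confused with those of HLA-DRB5, -1.51 (SE 0.29). The class II confidence intervals contained 0 for 4 of 17 genes (HLA-DOB, RFX5, RFXANK and RFXAP), those of the ligand genes for 8 of 8. No class II gene passed edgeR's adjusted threshold. HLA-DRA, CIITA, HLA-DPB1 and HLA-DRB1, those of the list with the smallest edgeR p, passed that of DESeq2, which called 0.268% of 12709 genes. The DESeq2 results of the other class II genes are not reported here. The list was chosen with its direction known, and the difference between the lists was not tested.

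**Figure D3:**
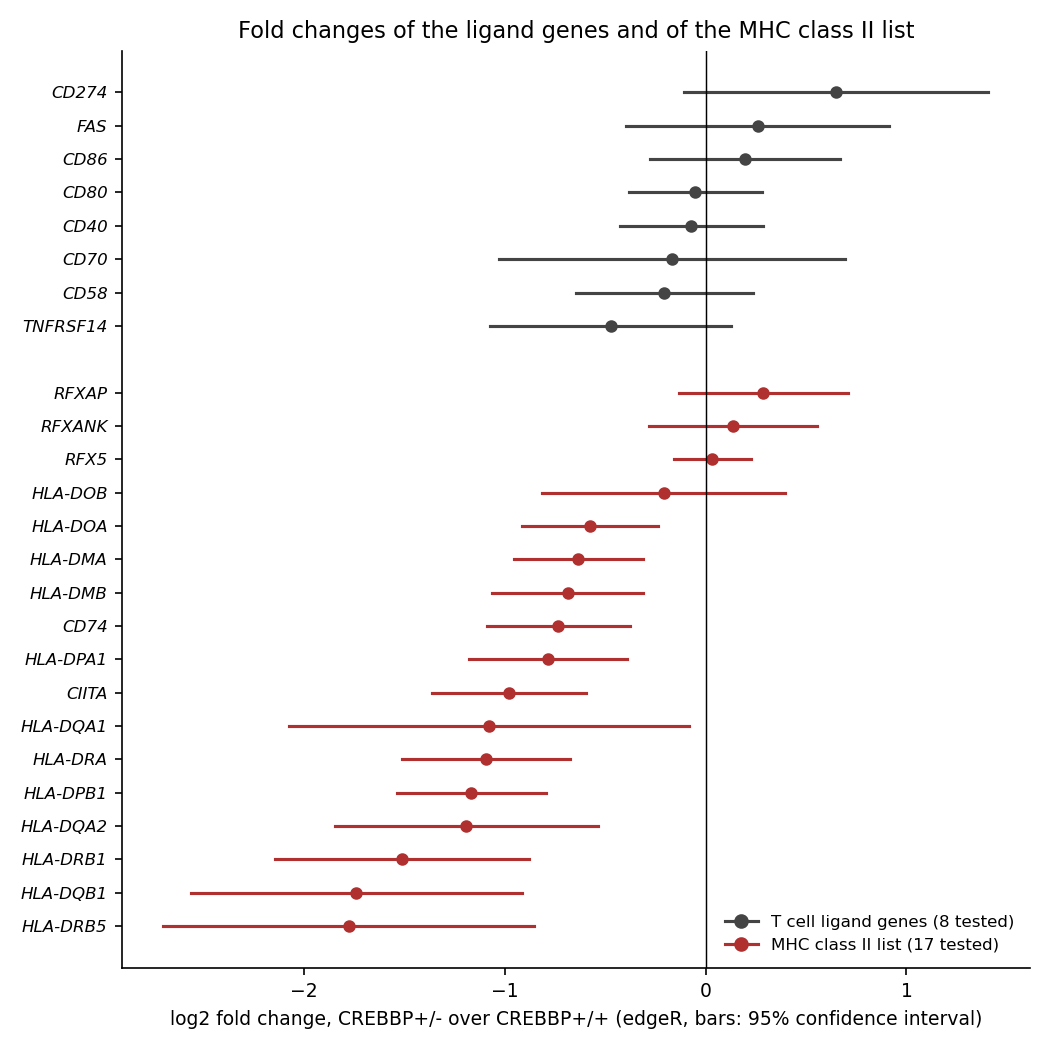
Log2 fold change of CREBBP+/- over CREBBP+/+ libraries (horizontal axis, points) with 95% confidence intervals from edgeR for the 8 tested ligand genes (top) and the 17 class II genes (bottom). The ligand genes run from -0.47 to 0.65 with every interval across 0; the class II genes run from -1.78 to 0.29.

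Across libraries the ligand genes followed the clusters in a few cases. The level spanned over 3-fold between the highest and the lowest library for FAS (3.31), CD274 (3.32), CD70 (3.21) and TNFRSF14 (3.16), and 1.71-fold for CD80. On the log2 scale, 16.5% of all genes tested spanned at least as much as FAS, and 55.1% as much as CD80. Of the 8 tested genes, cluster A lay above cluster B without overlap in 1 (CD70) and below it in 2 (CD274 and CD40). Of all genes tested, 45.8% did not overlap (21.9% higher, 23.9% lower), so these counts are near the background. For CD274 the margin was small, with 13 reads in Het_8 and in WT_2 (0.708 and 0.709 CPM) against 15 in WT_5 (0.781 CPM). Cluster C lay above cluster B without overlap in 1 of the 8 (FAS), where 40.2% of genes tested did not overlap (19.3% higher, 20.9% lower). The clusters were drawn from these same libraries. Within cluster A, Het_8 lay below WT_1 and WT_2 in CD80, CD86, CD58, CD70 and CD40, with differences of mean log2 CPM of -0.50, -0.35, -0.65, -0.15 and -0.27, and above them in FAS (0.17). With 1 library against 2, 76.6% of all genes tested did not overlap (38.3% lower, 38.3% higher), so 6 of 8 is near the background for both directions together. By direction, the genes that were lower exceeded their background share and FAS alone was higher, and this split was not tested. Within cluster B, Het_6 and Het_7 lay below WT_3 to WT_5 in CD70 (-0.31) and TNFRSF14 (-1.16), and the other 6 tested genes overlapped, where 36.2% of all genes tested did not overlap (18.4% lower, 17.8% higher). Het_8 also had the lowest class II mean, -1.05 from the mean of the 10 libraries, and the lowest B cell marker mean, -0.45, beside -0.35 and -0.20 in WT_1 and WT_2; the part of either in the ligand values was not tested.

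**Figure D4:**
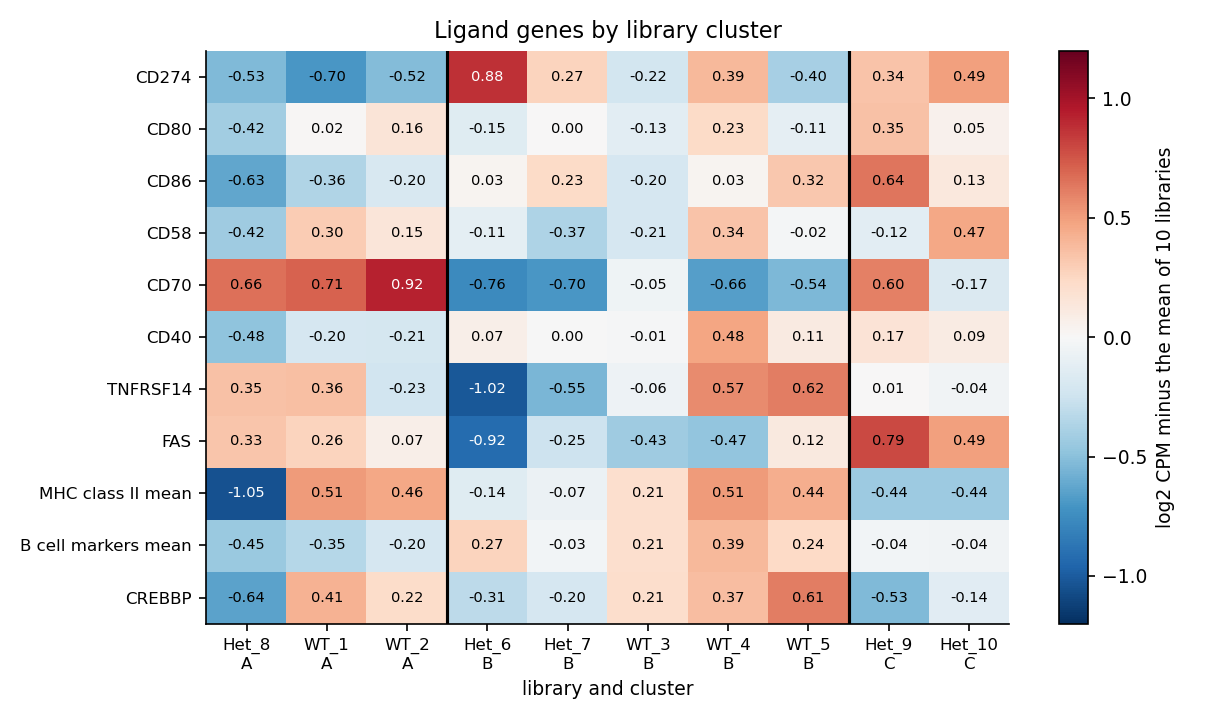
Log2 CPM minus the mean of the 10 libraries (colour and printed value) for the 8 tested ligand genes, the means of the class II and B cell marker lists, and CREBBP, with libraries grouped by cluster A, B and C (horizontal axis). CD70 is above its mean in all of cluster A and in Het_9, TNFRSF14 is lowest in Het_6 and Het_7, and the class II mean is below 0 in all 5 CREBBP+/- libraries.

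For the 5 ligand genes whose log2 CPM spanned at least 1, the genes most alike over the 10 libraries were found by the root mean square difference of centred log2 CPM among 11501 genes. CD86 was closest to SDCBP (0.11), UTP23 (0.13) and GSKIP (0.14), against a median of 0.43 over all candidates. TNFRSF14 was closest to LIME1 (0.19), SYTL1 (0.19) and ENSG00000268575 (0.23), the last of which lies within 1 Mb of it. FAS was closest to RELL2 (0.19), TRIM9 (0.21) and ABAT (0.21), CD274 to ZNF610 (0.22), CXCR5 (0.26) and MSRA (0.27), and CD70 to ZNF566 (0.25), TM9SF2 (0.27) and CD320 (0.28). These are descriptions of 10 libraries that share the clusters.

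Other ligands that touch T cells did not pass either. Of 25 listed, 14 were tested, 11 with estimates below and 3 above 0 (median -0.12), and the other 11 stayed under 1 CPM in every library, among them PVR and VTCN1 with no reads. BTN2A2, a butyrophilin that dampens T cell activation in mice, had 8.45, 8.73, 9.64, 7.53 and 7.27 CPM in Het_6 to Het_10, against 15.8, 12.8, 10.2, 10.4 and 9.33 CPM in WT_1 to WT_5. Only Het_8 reached above the lowest CREBBP+/+ library, WT_5 (log2 fold change -0.49, SE 0.17, edgeR unadjusted p = 0.0141 and adjusted p = 0.950). BTN3A1 had -0.30 (SE 0.19), ICAM3 -0.16 (SE 0.17) and CEACAM1 -0.91 (SE 1.03). With the cluster as a covariate they were -0.056 for BTN3A1, -0.37 for ICAM3 and -0.58 for CEACAM1. Leaving out Het_9 and Het_10 gave -0.096 for BTN3A1, and leaving out 1 library gave -0.25 (Het_10) to -0.044 (Het_8) for ICAM3 and -1.55 (Het_6) to -0.61 (Het_8) for CEACAM1. Of 15 receptors and ligands on the T cell side, 5 were tested, all with estimates below 0 (median -0.48). Of all genes tested, 52.4% were below 0. CD27, the CD70 receptor that B cells also carry, averaged 97.4 ± 25.0 CPM in the CREBBP+/- group and 120 ± 18.0 CPM in the CREBBP+/+ group (SD, n = 5 each; log2 fold change -0.30, SE 0.18). TIGIT had -0.48 (SE 0.46), HAVCR2 -0.97 (SE 0.55) and PDCD1 -0.60 (SE 0.67). Leaving out 1 library gave -0.79 (Het_7) to -0.26 (Het_8) for TIGIT, -1.84 (Het_7; edgeR adjusted p = 0.515) to -0.76 (Het_9) for HAVCR2 and -1.44 (Het_8) to -0.23 (WT_1) for PDCD1. CD28, CTLA4, CD2, CD40LG and FASLG had 0 reads in all 10 libraries.

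Of the B cell markers, CD22 had a log2 fold change of 0.33 (SE 0.23), CD37 -0.33 (SE 0.27) and CD79B -0.15 (SE 0.15). Of the markers of other cell types, CD14 had 0.14 (SE 0.35) and EPCAM 0.58 (SE 0.63).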

How the data were processed

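RNA was sequenced in 10 libraries of U2932 clones. The authors deposited raw counts per Ensembl gene, 1 column per library, not pooled. Per the submitters' processing notes, FastQC, STAR, featureCounts, DESeq2 and GRCh38 were used; their roles and options, the annotation and the use of strand are not stated in the sources used here. Deposited counts of 10000 or more carry 4 significant digits. CREBBP+/- columns are numbered 6 to 10, unlike the labelled clones, and were used by group.

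Genes were filtered (filterByExpr, minimum count 10, total 15; 11961 kept, 9213 removed) and tested with edgeR 4.0.16 (TMM, robust quasi-likelihood F-test, R 4.3.3), two-sided, with Benjamini-Hochberg adjustment over all genes tested. Standard errors come from the F statistics. Log2 CPM used a prior count of 2. Clusters came from average linkage of log2 CPM. Motifs and positions used RefSeq and GENCODE v44; 20804 identifiers had a symbol. The fit was tested on simulated data. Alternatives were DESeq2 1.42.0, limma-voom 3.58.1, other normalizations and filters, the cluster as a covariate, and leaving out libraries.

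Named genes were CREBBP, the 10 genes, up to 4 per list with the smallest p, flanking genes and the most alike genes; TNFSF9, JAK2, NCAM1 and the genes with 0 reads were named after their values were seen. The genes and lists were chosen with earlier results of these data known. Values of some listed genes are not reported here.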

Additional observations from a re-analysis of the deposited data

Results flagged for a closer look

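In 2 of 34 groups of 5 libraries 1 library stood apart, its gap to the nearest other library exceeding 0.71 of the group's range; chance gives about 1 in 20. For CD40, Het_8 was the lowest CREBBP+/- library, with a log2 CPM of 5.43 against 5.91 in the next (42.9 CPM). For the mean of the MHC class II list, WT_3 was the lowest CREBBP+/+ library, with 6.64 against 6.87 in the next.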

How the results depend on the processing

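The count of 0 genes called was unchanged under limma-voom, both other normalizations, both other filters, the cluster as a covariate and without Het_9 and Het_10. It was 34 with DESeq2 and 0 to 1 leaving out 1 library (1 without Het_6). The count of 0 ligand genes called held under all of these. CREBBP kept its direction, with -0.78 to -0.66 leaving out 1 library, and passed with DESeq2 alone (-0.72). Signs turned for CD86 and FAS with the cluster as a covariate (-0.071 and -0.14) and without Het_9 and Het_10 (-0.011 and -0.13). Leaving out 1 library gave ranges across 0 for CD80 (-0.16 to 0.035), CD70 (-0.37 to 0.080), CD40 (-0.13 to 0.058) and CD14 (-0.043 to 0.35), and for the medians of the 8 ligand genes (-0.14 to 0.031), of the PD-L1 regulators (-0.13 to 0.012) and of the B cell markers (-0.10 to 0.11). CD14 was -0.023 with the cluster as a covariate. The median of the 8 ligand genes was -0.22 with the cluster as a covariate and -0.19 without Het_9 and Het_10. The causes were not tested. CD274, CD58 and TNFRSF14 kept their signs throughout. No paired analysis was possible because the CREBBP+/- columns carry numbers that no labelled clone has. CD274, ICOSLG and PDCD1LG2 are limited by depth.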
